A study of Mus musculus with 16 samples.

Results

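The *Nrgn*-selected neurons described here are 258 of the 9679 neurons and of the 55675 cells kept from the hypothalamus and preoptic area (hypothalamus-POA) of 16 mice. Barcodes were kept as cells if more than 200 genes but fewer than 4000 were detected, with under 15% of their unique molecular identifiers (UMIs, 1 per captured transcript) on mitochondrially encoded genes. A cell counted as a neuron when at least 3 of the 8 genes *Snap25*, *Syt1*, *Stmn2*, *Snhg11*, *Meg3*, *Celf4*, *Map1b* and *Ndrg4* were detected. A neuron was selected when it held at least 2 *Nrgn* UMIs, at least 1 of *Crym*, *Lypd1* and *Arpp21*, and no UMI of *Rax* or *Col23a1*. The cells were thus selected on their own UMI counts of these genes, and the levels of these genes in the selected neurons describe the rule. Working from earlier results, these cells had been called forebrain-like, a name that is set beside their genes below.

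The study asked how tamoxifen, an estrogen receptor modulator used against breast cancer, changes gene expression in the brain, and whether the change needs *Esr1*, the gene of estrogen receptor alpha (ERα). Drop-seq libraries, 1 per mouse, came from females of a mixed CD-1;129P2 background that were 8 to 10 weeks old at the start and received 28 daily subcutaneous injections. The 4 groups were wild-type mice given oil vehicle (n = 3), wild-type mice given tamoxifen at 0.1 mg/kg (n = 5), *Esr1* cKO mice given oil (n = 4) and *Esr1* cKO mice given tamoxifen at the same dose (n = 4). *Esr1* cKO mice carried floxed *Esr1* alleles and Cre driven by an *Nkx2-1* transgene, so deletion is limited to cells with a history of *Nkx2-1*, a transcription factor of the ventral forebrain and medial basal hypothalamus. Wild-type here means Cre-negative littermates, which can carry floxed alleles. The label check that *Esr1* itself could offer is weak, because 3' tags outside the deleted exon say nothing about the deletion. Over all neurons, *Esr1* stood at 58.4 ± 29.6 CPM (UMIs scaled to a common total of 1000000; SD, n = 3) in wild-type oil mice, 63.0 ± 7.88 (n = 5) in wild-type tamoxifen mice, 45.1 ± 4.63 (n = 4) in *Esr1* cKO oil mice and 47.9 ± 23.8 (n = 4) in *Esr1* cKO tamoxifen mice. The difference between genotypes was -0.29 ± 0.36 (log2, SE) under oil (adjusted p = 0.988, edgeR quasi-likelihood test) and -0.45 ± 0.32 under tamoxifen, which did not pass either.

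*Nrgn* encodes neurogranin, a small protein of dendrites and spines that binds calmodulin when calcium is low, and it is a familiar marker of excitatory neurons of the cortex, hippocampus and amygdala. *Crym* encodes mu-crystallin, which binds thyroid hormone in the cytosol. *Lypd1* is a Ly6-family protein that acts on nicotinic acetylcholine receptors, and *Arpp21* is a cAMP-regulated phosphoprotein known from striatal and cortical projection neurons. Forebrain projection neurons that use *Slc17a7*, the vesicular glutamate transporter VGLUT1, make up most of the cortex, whereas hypothalamic glutamatergic neurons use *Slc17a6* (VGLUT2) and many hypothalamic neurons release GABA. In RefSeq's GRCm38.p6 annotation, the same build as mm10, *Nrgn* lies at chr9:37544493-37552745, *Crym* at chr7:120186380-120201989, *Lypd1* at chr1:125867622-125913175 and *Arpp21* at chr9:112065091-112236288, and the values below are UMIs counted over each whole gene.

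The 16 libraries held between 2634253 and 8038158 UMIs each. Those of wild-type oil mouse 3 and *Esr1* cKO tamoxifen mouse 3 stood apart from the rest on the first principal component of the kept cells' summed counts (59.3% of the variance, scores of 94.8 and 92.1 against -30.5 to -5.70 in the other 14), and their deposited barcodes start at 100 genes where the others start at 20. Of 54478 distinct barcodes among kept cells, 520 occurred in more than 1 library. This touched 7 selected neurons, whose barcodes were also kept cells of another library, and no barcode was shared between selected neurons. Selected neurons were deeper than other neurons, with a median of 3262 UMIs (quartiles 2067 and 4476, range 406 to 9746) and 2027 genes, against 1702 UMIs and 1175 genes. Cells outside the neuron gate had a median of 605 UMIs. Together the selected neurons held 899420 UMIs, 4.07% of all neuronal UMIs, so a gene without any UMI in them could still stand at up to 3.34 CPM (the level that 3 counts would give). Such limits and the intervals given for shares cover counting error only.

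Every mouse gave some selected neurons, but 3 mice gave most of them. Wild-type tamoxifen mouse 2 held 51 among 583 neurons (8.75%, exact Clopper-Pearson 95% interval 6.58 to 11.3%), *Esr1* cKO oil mouse 1 held 47 among 713 (6.59%, 4.88 to 8.67%) and *Esr1* cKO tamoxifen mouse 3, one of the libraries that stood apart, held 43 among 817 (5.26%, 3.83 to 7.02%). These 3 mice, each of a different group, gave 141 of the 258 cells (54.7%). In the other 13 mice the share ran from 0.570%, 4 of 702 neurons in *Esr1* cKO tamoxifen mouse 1, to 2.28%, 8 of 351 neurons in wild-type oil mouse 1. The median over all 16 was 1.68%. The stacked bars of share by mouse show how uneven the yield was within each treated or control group.

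**Figure D1:**
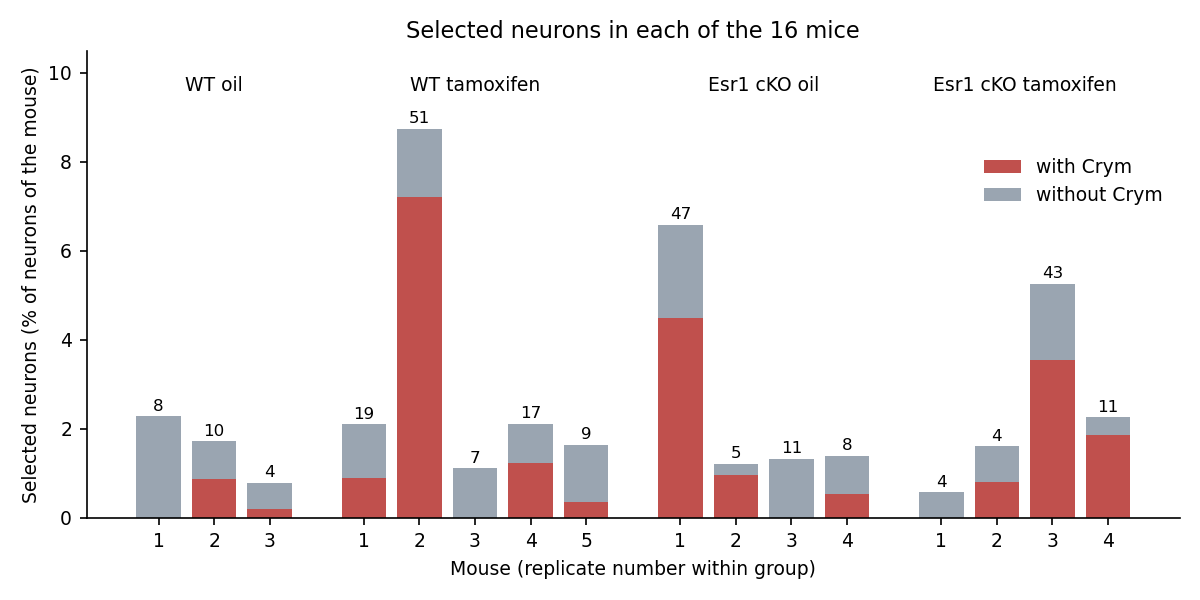
Selected neurons in each mouse as a percent of that mouse's neurons (vertical axis), with mice ordered by group and replicate number. Bars are divided into selected neurons with and without a *Crym* UMI. Wild-type tamoxifen mouse 2 (8.75%), *Esr1* cKO oil mouse 1 (6.59%) and *Esr1* cKO tamoxifen mouse 3 (5.26%) rise above the rest, which lie between 0.570% and 2.28%.

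The genes of the rule varied widely among the selected cells. The median cell held 3 *Nrgn* UMIs and the highest 20: 95 cells had exactly 2, 48 had 3, 33 had 4 and 82 had at least 5. *Arpp21* was the companion found most often, in 212 cells (82.2%), followed by *Crym* in 147 (57.0%) and *Lypd1* in 114 (44.2%). All 3 companions occurred together in 73 cells, whereas 84 cells qualified through *Arpp21* alone, 16 through *Crym* alone and 16 through *Lypd1* alone. Just inside the threshold, the 95 cells with 2 *Nrgn* UMIs carried the cortical and hippocampal glutamatergic genes (20 listed genes, summed) at 2938 CPM. Just outside it, 163 neurons with 1 *Nrgn* UMI and a companion carried them at 2101 CPM, and 162 neurons with enough *Nrgn* but no companion at 1571 CPM, while other neurons as a whole stood at 1283 CPM. Selected cells with 3 or more *Nrgn* UMIs reached 4212 CPM. For this list, neurons just outside the rule lay between other neurons and the selected cells. A further 44 neurons met the *Nrgn* and companion conditions but held *Rax* or *Col23a1*.

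Pooled over cells, *Nrgn* stood at 1244 CPM in selected neurons, 62.4 CPM in other neurons and 12.6 CPM outside the neuron gate. *Crym* stood at 565, 26.5 and 12.6 CPM in the same order. Selected neurons held 45.8% of all neuronal *Nrgn* UMIs (1119 of 2441) and 47.5% of all *Crym* UMIs (508 of 1070), against 28.6% for *Lypd1* and 21.9% for *Arpp21*. Most *Nrgn* and *Crym* transcripts of the neurons thus lay outside the selection.

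The selection held cells of different kinds, and the presence of *Crym* divided them, a split made after the values were seen and therefore given without a test. The 147 cells with *Crym* carried genes of the telencephalon. The basic helix-loop-helix factor *Neurod2*, of cortical and hippocampal excitatory neurons, stood at 139 CPM in them and at 15.7 CPM in the 111 cells without *Crym*. The zinc-finger factor *Bcl11b*, at chr12:107910403-108004145, which specifies deep-layer cortical and striatal projection neurons, stood at 226.5, 83.2 and 26.3 CPM in selected cells with *Crym*, selected cells without it and other neurons. The neuropeptide gene *Cck*, the nuclear factors *Nfix* and *Nfib* and the LIM-only factor *Lmo4* were also abundant with *Crym*, at 888, 464, 684 and 721 CPM against 54.0, 40.5, 106 and 112 CPM without it. Gastrin-releasing peptide (*Grp*) stood at 334 against 29.2 CPM, and the muscarinic receptor *Chrm1* at 61.6 against 13.5 CPM.

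Not every cortical gene followed. *Tbr1* and *Emx1*, transcription factors of the developing and adult cortex, gave only 1 and 3 UMIs over all 258 cells. *Lhx2* and *Lhx9*, LIM-homeodomain factors of the developing forebrain (*Lhx9* stands in the hypothalamic list), stood at 68.2 and 92.4 CPM with *Crym* and at 11.2 and 15.7 CPM without it. The cells with *Crym* thus carried telencephalic genes with few UMIs of these cortical factors.

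The 111 cells without *Crym* carried transmitter genes and hypothalamic factors that were low in the cells with *Crym*. *Gad2*, which makes GABA, stood at 630 CPM in them, 511 CPM in other neurons and 39.6 CPM in the cells with *Crym*. *Slc17a6* stood at 297, 181 and 46.2 CPM. *Isl1*, a LIM-homeodomain factor of ventral hypothalamic and striatal lineages, stood at 128, 61.1 and 21.99 CPM. *Nkx2-1* stood at 47.2, 30.4 and 2.20 CPM, and *Fezf1*, a factor of the ventromedial hypothalamus, at 54.0, 5.996 and 2.20 CPM. The whole list of 30 hypothalamic regional transcription factors did not stand out from other neurons in this way, at 648, 633 and 174 CPM. Over the 6 mice with at least 5 cells of each kind it averaged 506 ± 200 CPM without *Crym*. Other neurons of these mice ran from 520 to 725 CPM. *Sst*, the somatostatin precursor, stood at 277, 332 and 41.8 CPM. *Gap43*, a calmodulin-binding protein of growing and plastic axons, stood at 2026 CPM without *Crym*, 1122 CPM in other neurons and 644 CPM with *Crym*. In other respects they differed from other neurons. Hypothalamic neuropeptides (25 listed genes, summed) stood at 888 CPM without *Crym*, 754 CPM with *Crym* and 7636 CPM in other neurons. Cortical and hippocampal genes stood at 1997, 5535 and 1283 CPM in the same order. The telencephalic transcription factors, at 585, 1814 and 667 CPM, were lower without *Crym* than in other neurons when pooled over cells. The mean over mice lay the other way. In the 6 mice with at least 5 cells of each kind they averaged 804 ± 283 CPM without *Crym*. Other neurons of these mice ran from 600 to 782 CPM.

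**Figure D2:**
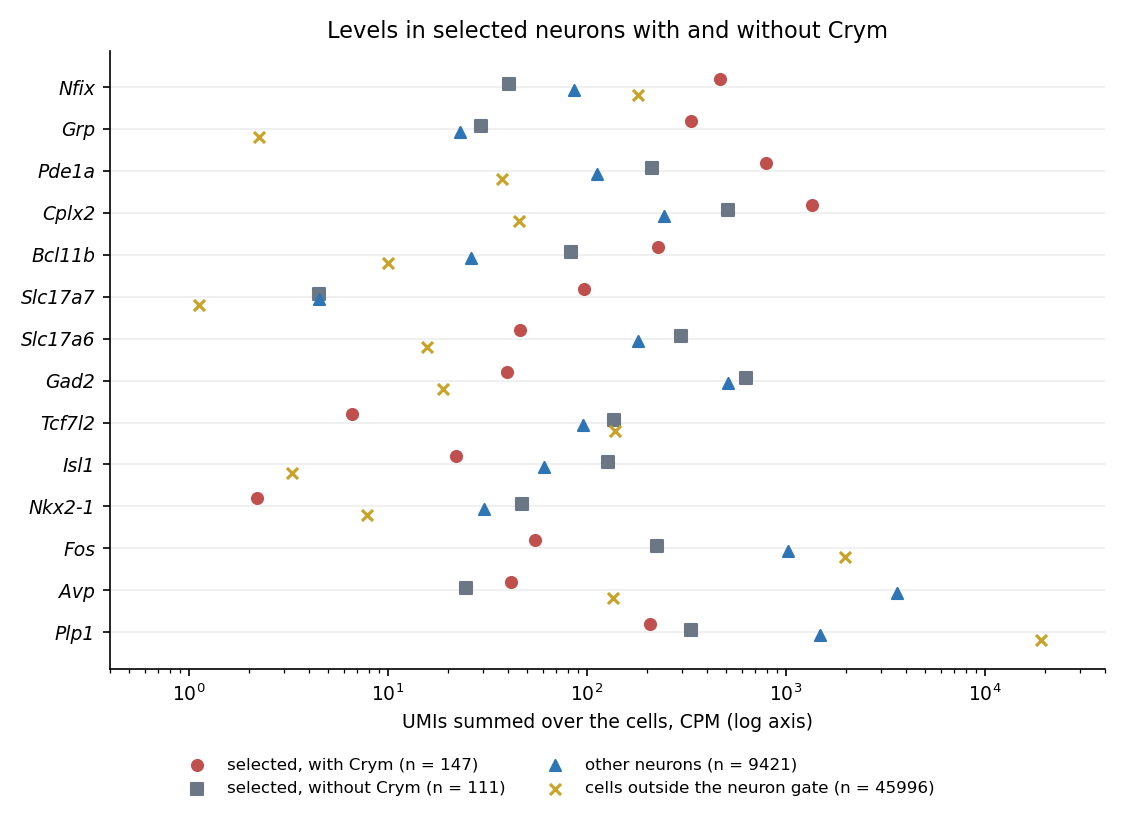
Level of 14 genes (horizontal log axis, CPM of the UMIs summed over cells) in selected neurons with *Crym* (circles, n = 147 cells), selected neurons without *Crym* (squares, n = 111), other neurons (triangles, n = 9421) and cells outside the neuron gate (crosses, n = 45996). *Slc17a7* of the cells without *Crym* lies on the mark of the other neurons, while *Slc17a6*, *Gad2*, *Isl1* and *Nkx2-1* lie to the right of the cells with *Crym*.

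The difference between cells with and without *Crym* was seen within single mice. In the 6 mice with at least 5 cells of each kind, the summed level of 19 telencephalic transcription factors was 1963 ± 188 CPM (SD, n = 6; range 1692 to 2236) with *Crym* and 804 ± 283 CPM (384 to 1166) without it. The ranges did not overlap and the level was higher with *Crym* in 6 of 6 mice. The cortical and hippocampal genes behaved alike, at 5739 ± 495 CPM (4773 to 6123) and 2494 ± 1079 CPM (1498 to 4107), again in 6 of 6 mice. The 30 hypothalamic regional transcription factors went the other way, at 208 ± 161 CPM (60.4 to 517) with *Crym* and 506 ± 200 CPM (223 to 805) without it, higher with *Crym* in 0 of 6 mice. The ranges of this list overlapped. Striatal projection neuron genes showed no common direction, at 959 ± 557 and 1226 ± 433 CPM and higher with *Crym* in 2 of 6 mice. Nor did the hypothalamic neuropeptides, at 946 ± 532 and 687 ± 382 CPM and higher with *Crym* in 3 of 6 mice. The median depth was 2922 UMIs with *Crym* and 3734 UMIs without it, and its part in these values was not tested. The telencephalic list is not particular to neurons. Pooled over cells outside the neuron gate it stood at 962 CPM, above the 667 CPM of other neurons. *Nfix*, *Mef2c* and *Id2* stood there at 180, 222 and 284 CPM against 86.4, 102 and 77.1 CPM in other neurons. *Bcl11b* went the other way, at 10.1 against 26.3 CPM.

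The cells with *Crym* thus carried the listed telencephalic, cortical and hippocampal genes at higher levels than the cells without it. The split and the gene lists were chosen with these data known, so the values describe the forebrain name and do not test it. The cells without *Crym* were mixed, with cortical and hippocampal genes above and neuropeptides below other neurons. Their telencephalic transcription factors lay below other neurons when pooled over cells but not in the mean over mice. Striatal projection neuron genes, pooled over cells, stood at 1448 CPM without *Crym*, 981 CPM with *Crym* and 889 CPM in other neurons. In the 6 mice with at least 5 cells of each kind they averaged 1226 ± 433 CPM without *Crym*. Other neurons of these mice ran from 762 to 1038 CPM. The GABA genes of the cells without *Crym* do not decide the name. *Slc17a6* and single hypothalamic factors in these cells go against it, although the hypothalamic list as a whole did not stand plainly above other neurons. The cells are therefore called *Nrgn*-selected neurons throughout. Mice differed in this mixture as well as in the share. *Crym* was found in 42 of the 51 selected neurons of wild-type tamoxifen mouse 2, 32 of 47 in *Esr1* cKO oil mouse 1 and 29 of 43 in *Esr1* cKO tamoxifen mouse 3. It was found in 0 of 8 in wild-type oil mouse 1, 0 of 7 in wild-type tamoxifen mouse 3, 0 of 11 in *Esr1* cKO oil mouse 3 and 0 of 4 in *Esr1* cKO tamoxifen mouse 1. The remaining 9 mice fell between these extremes or held few cells. Among them, *Esr1* cKO tamoxifen mouse 4 had *Crym* in 9 cells and lacked it in 2, and *Esr1* cKO oil mouse 2 in 4 and 1.

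Transmitter genes separated the cells in the same way. *Slc17a7* was detected in 37 of the 258 selected neurons (14.3%), in 84 of 9421 other neurons (0.892%) and in 42 of 45996 cells outside the gate (0.0913%), the background that free RNA can give at their lower depth. With each cell thinned to 1000 UMIs, which left out 11 selected and 2750 other neurons as too shallow, the shares were 7.69% and 0.420%. *Slc17a6* was detected in 55 selected neurons (21.3%; 10.9% thinned) and in 18.2% of other neurons (12.2% thinned). A GABA gene (*Gad1*, *Gad2* or *Slc32a1*) was detected in 58 (22.5%; 18.2% thinned) and in 43.2% of other neurons (38.4% thinned). Selected neurons thus carried *Slc17a7* in a larger share of cells and GABA genes in a smaller share than other neurons at equal depth, while their *Slc17a6* shares lay close together.

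*Slc17a7* lay almost wholly in the cells with *Crym*. It was detected in 35 of those 147 (23.8%; 9.93% thinned) and in 2 of the 111 without *Crym* (1.80%). *Slc17a6* was detected in 11 with *Crym* (7.48%) and in 44 without (39.6%), and a GABA gene in 9 (6.12%) and 49 (44.1%). A glutamate transporter and a GABA gene occurred together in 5 cells, all without *Crym*, and 0 of 147 with *Crym* allows up to 2.04% of cells with a UMI of both, which does not limit the cells that express both. Both glutamate transporters occurred together in 1 selected neuron. Neither kind of gene was detected in 93 cells with *Crym* (63.3%) and 21 without (18.9%), against 41.1% of other neurons.

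**Figure D3:**
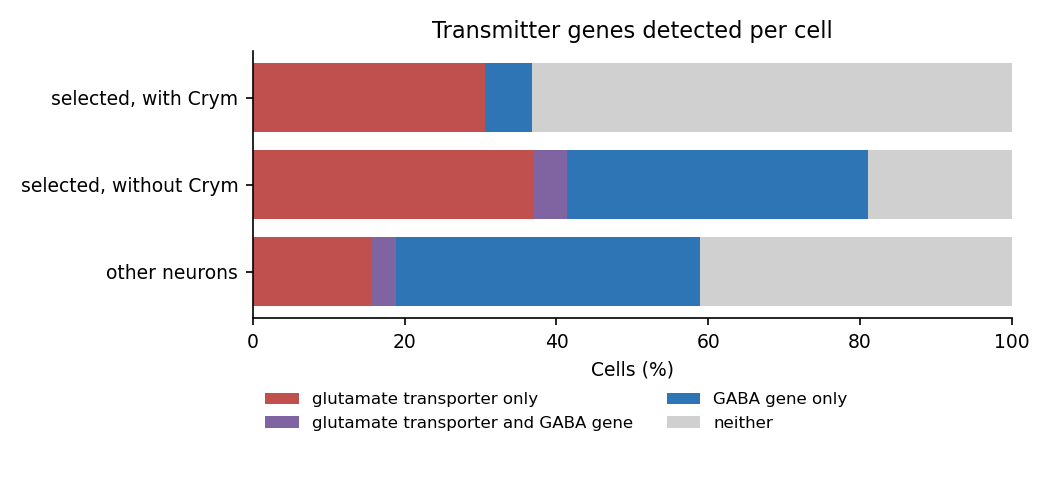
Percent of cells (horizontal axis) in which a vesicular glutamate transporter (*Slc17a6* or *Slc17a7*), a GABA gene (*Gad1*, *Gad2* or *Slc32a1*), both or neither was detected, for selected neurons with and without *Crym* and for other neurons. GABA genes alone mark 6.12% of the cells with *Crym*, 39.6% of those without and 40.1% of other neurons.

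The 3 mice rich in selected neurons were not alike in these genes. *Slc17a7* gave 25 UMIs in 18 of 51 cells in wild-type tamoxifen mouse 2, 8 UMIs in 6 of 47 cells in *Esr1* cKO oil mouse 1 and 7 UMIs in 7 of 43 cells in *Esr1* cKO tamoxifen mouse 3. Of the other 13 mice, 9 gave none. *Vgll3*, a transcriptional cofactor of the Vestigial family, gave 15, 29 and 30 UMIs in the same 3 mice, 1 UMI in wild-type tamoxifen mouse 4 and none elsewhere. *Neurod6*, a factor of cortical and hippocampal pyramidal neurons, was absent from the 51 cells of wild-type tamoxifen mouse 2 and gave 7 UMIs in 2 cells of wild-type oil mouse 2, 5 in *Esr1* cKO oil mouse 1 and 2 in *Esr1* cKO tamoxifen mouse 3. *Dcn*, an extracellular proteoglycan gene of the fibroblast list, stood at 445 CPM in the selected neurons of wild-type tamoxifen mouse 2 (64 UMIs in 20 of 51 cells). With 1 library each, these 3 mice cannot be compared by a test.

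Selected neurons were next set beside the other neurons of the same mouse in the 8 mice with at least 10 of them (209 cells; the other 49 enter only the pooled values). Because transcripts chose the cells, the contrast is given as values with no test. Of 8687 genes compared, 85 (0.978%) were at least 2-fold higher and 276 (3.18%) at least 2-fold lower in selected neurons with the same direction in 8 of 8 mice. The log2 ratios below are of mean CPM plus 10, and their median over all genes was -0.03.

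Of the genes named at the upper end, *Bcl11b* led, at 198.6 ± 93.8 CPM (SD, n = 8; range 77.2 to 345) against 25.6 CPM in other neurons, a log2 ratio of 2.55. *Cplx2*, the complexin that clamps synaptic vesicle release, stood at 1182 ± 384 CPM against 263 CPM (2.13), and its lowest mouse (695 CPM) lay above the highest mouse among other neurons (372 CPM). On the postsynaptic side, the calcium-activated kinase *Ptk2b* stood at 166 ± 90.3 against 21.1 CPM (2.50), the inositol trisphosphate kinase *Itpka* at 88.2 ± 57.6 against 7.46 CPM (2.49) and dendrin (*Ddn*) at 62.2 ± 34.4 against 6.25 CPM (2.15). *Icam5*, an adhesion molecule of telencephalic dendrites, stood at 102 ± 48.2 against 17.1 CPM (2.04), and the spine scaffold *Baiap2* at 251 ± 101 against 61.1 CPM (1.88).

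Further named genes had diverse roles. *Kcnip2*, a subunit of A-type potassium channels, had a log2 ratio of 2.10 and *Kcna1*, a voltage-gated potassium channel, of 1.78. The copine *Cpne6*, a calcium-dependent membrane-binding protein of excitatory neurons, stood at 298 ± 67.1 against 69.2 CPM (1.96), with no overlap between its lowest mouse (193 CPM) and the highest of the other neurons (83.8 CPM). The calmodulin-dependent phosphodiesterase *Pde1a* stood at 443 ± 311 against 117 CPM (1.84), with a spread between mice from 154 to 954 CPM. The anoctamin *Ano3* was uneven as well, at 144 ± 145 CPM. *Doc2b*, a calcium sensor for vesicle release, *Ak5*, an adenylate kinase of brain, *Efnb2*, an ephrin ligand, and the protocadherin *Pcdh20* had ratios of 1.88, 1.84, 1.81 and 1.77. *Sowaha*, *Pter* and *Fam81a*, with ratios of 1.90, 1.88 and 1.79, were among the highest as well.

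The gene lists, chosen with earlier results of these data known, give the contrast by function. Their calls and medians therefore describe the selected neurons and test nothing. Of the cortical and hippocampal list, 13 of 20 genes were abundant enough to compare (20 CPM over all neurons). All 13 lay above 0 with a median log2 ratio of 1.38. Of these, 5 were called higher, beside 0.978% of all genes. A call means at least 2-fold by the ratio of means with the same direction in 8 of 8 mice. The 5 were *Camk2a*, a calmodulin-dependent kinase of excitatory synapses (396 against 158 CPM), the signaling protein *Chn1* (244 against 108 CPM), *Baiap2*, *Ptk2b* and *Cpne6*. Their list's summed level was 3992 ± 1177 CPM in selected and 1303 ± 87.5 CPM in other neurons, higher in 8 of 8 mice. The median was 1.41 without the libraries that stood apart. By mouse the sum ran from 1854 CPM in *Esr1* cKO oil mouse 3, where no selected neuron held *Crym*, to 5484 CPM in wild-type tamoxifen mouse 2. Telencephalic transcription factors summed to 1382 ± 454 against 664 ± 65.6 CPM, higher in 7 of 8 mice, but of 8 compared only *Bcl11b* was called higher and *Rorb*, an orphan nuclear receptor of cortical layer 4 and thalamus, lower (33.5 against 140 CPM), with a median of 0.23. *Nfix* (283 against 88.5 CPM) and *Bcl11b* were its most abundant members. Striatal projection neuron genes had a median of -0.12 over 13 genes and 1 call, which was *Bcl11b*, a gene of both lists. *Penk* and *Tac1*, peptides of the striatal output pathways and of the hypothalamus, stood at 132 and 130 CPM against 158 and 140 CPM. Pooled over all 258 cells, *Tac1* stood at 308 CPM against 130.5 CPM in other neurons, and its highest levels came from mice with few selected neurons, such as 1230 CPM (45 UMIs) in wild-type oil mouse 1 and 1816 CPM (27 UMIs in 1 cell) in wild-type oil mouse 3.

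Of the genes around calmodulin, to which neurogranin binds, some stood higher and others did not. The calmodulin network of 27 genes, which shares *Camk2a* and *Itpka* with the cortical list and *Pde1b* with the striatal one, had a median of 0.55 over 25 genes. Of these, 19 stood above 0 and 7 were called higher, 28% beside 0.978% of all genes, and none was called lower. The network summed to 16782 ± 1388 CPM against 9943 ± 918 CPM. *Calm2*, which encodes calmodulin itself, stood at 3212 against 1831 CPM, and the calcineurin subunit *Ppp3ca* at 1407 ± 381 against 454 CPM. *Camk2n1*, an inhibitor of the kinase CaMKII, stood at 759 against 224 CPM and *Camkv*, a kinase-like protein of dendrites, at 272 against 86.3 CPM. Glutamate and GABA receptor subunits had a median of 0.28 over 22 genes, with *Gria1*, *Grin2b*, *Grm5* and *Gabra4* called higher and *Gabrg1* lower (29.1 against 83.0 CPM). The AMPA receptor subunits *Gria1* and *Gria2* stood at 743 and 1360 CPM against 353 and 784 CPM, the metabotropic receptor *Grm5* at 495 against 242 CPM and the GABA-A subunit *Gabra2* at 434 against 176 CPM.

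The pathways of *Crym* and *Lypd1* gave no call, beside 0.978% of all genes. Of the thyroid hormone genes, 9 were compared with a median of 0.19, 8 above 0 and a sum of 1309 ± 289 against 973 ± 92.8 CPM, higher in 7 of 8 mice, and the receptor *Thra* stood at 464 against 243 CPM. Of nicotinic and muscarinic receptors with Ly6 proteins, 5 were compared with a median of -0.29, 2 above 0 and a sum of 942 ± 243 against 844 ± 114 CPM, higher in 6 of 8 mice, so that sum and median differ in direction. *Ly6h*, another Ly6 protein, stood at 610 against 477 CPM, and *Chrm1* at 35.2 against 6.45 CPM. *Chrna2*, *Chrna3*, *Chrnb4* and *Chrm3* gave no UMI in any selected neuron. Housekeeping lists gave 0 calls and small shifts. Glycolysis had a median of 0.32 with 16 of 19 genes above 0 and a higher sum in 7 of 8 mice. Nuclear oxidative phosphorylation genes had a median of 0.14 with 59 of 76 above 0 and a higher sum in 8 of 8 mice. Ribosomal proteins had a median of -0.22 with 9 of 80 above 0 and a lower sum in 8 of 8 mice (29770 ± 1886 against 34592 ± 2789 CPM).

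**Figure D4:**
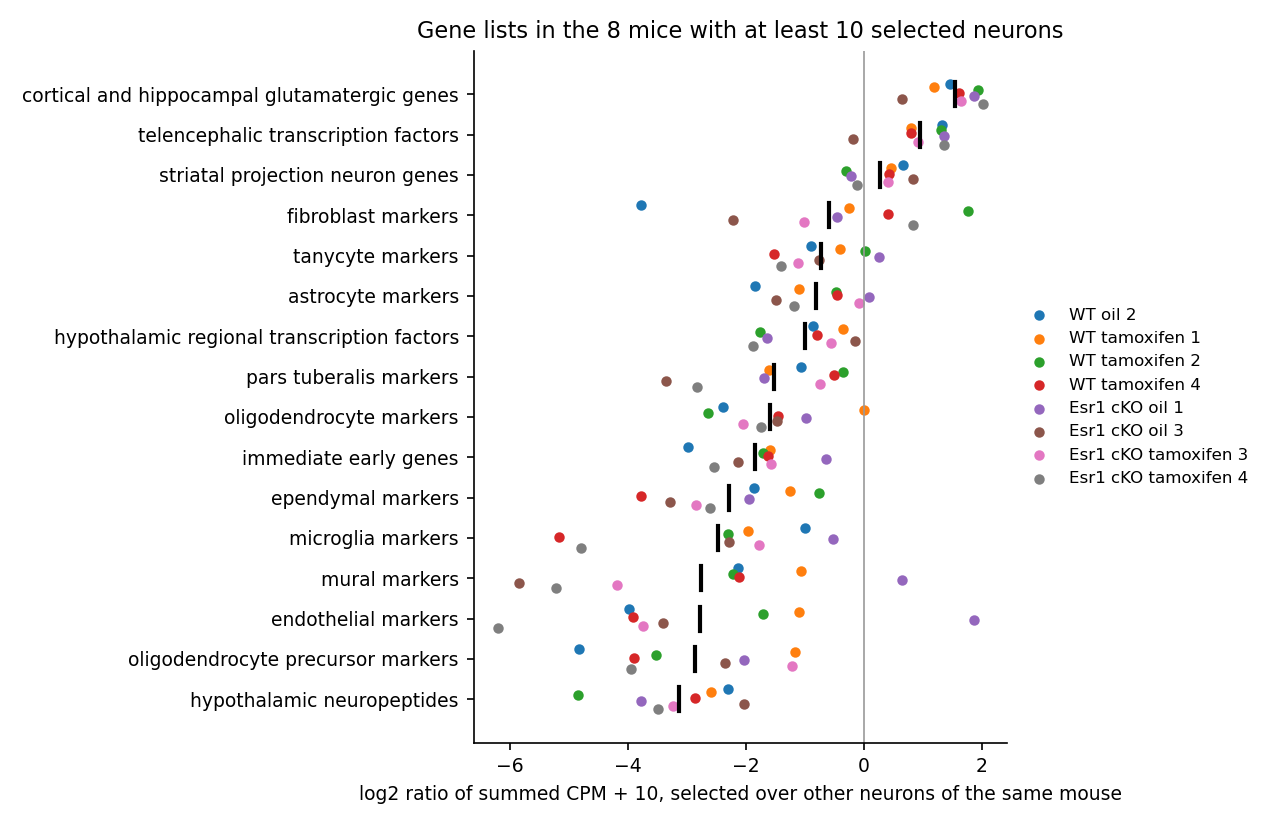
log2 ratio of the summed level (CPM plus 10) of each gene list in selected over other neurons of the same mouse (horizontal axis). Each point is 1 of the 8 mice with at least 10 selected neurons and each vertical bar is their mean. Cortical and hippocampal genes lie above 0 in 8 of 8 mice and hypothalamic neuropeptides below 0 in 8 of 8, and endothelial markers of *Esr1* cKO oil mouse 1 lie far to the right of the other mice.

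Hypothalamic peptides and activity genes made up the lower end. *Avp*, the vasopressin precursor of magnocellular and suprachiasmatic neurons, stood at 32.5 ± 32.0 CPM in selected neurons and 4049 ± 4339 CPM in other neurons (log2 ratio -6.58). *Oxt*, the oxytocin precursor, stood at 18.6 against 954 CPM (-5.08), *Tac2*, the neurokinin B precursor, at 25.8 against 537 CPM (-3.93), *Npy*, neuropeptide Y, at 4.47 against 158 CPM (-3.54) and *Hcrt*, the orexin precursor, at 10.3 against 156 CPM (-3.04). Outside the neuron gate *Avp* stood at 134.7 CPM, above its level in selected neurons. The immediate early genes *Fos* and *Fosb* stood at 126 ± 146 and 28.8 CPM against 1063 ± 175 and 316 CPM (-2.98 and -3.07). The other 3 of the 10 lowest were *Hbb-bs* and *Hba-a2*, the globins of red blood cells, at -3.11 and -3.06, and *Mgp*, a matrix protein, at -3.14.

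Of 20 hypothalamic neuropeptides compared, 13 were called lower, beside 3.18% of all genes, with a median of -2.58 and a sum of 850 ± 323 against 8252 ± 5070 CPM. *Crh*, *Agrp*, *Kiss1* and *Gnrh1* gave no UMI in selected neurons. *Sst* and *Gal* stood at 203 and 95.3 CPM against 422 and 591 CPM, whereas *Grp*, at 237 against 25.05 CPM, was higher. Hypothalamic regional transcription factors had a median of -1.37 over 11 genes with 6 called lower, and summed to 343 ± 163 against 629 ± 63.5 CPM. *Six3* stood at 26.4 against 84.1 CPM, whereas *Lhx9* was higher (56.9 against 13.5 CPM). Thalamic and habenular genes had a median of -1.07 over 8 genes with *Rora*, *Rorb* and *Zic1* called lower (78.3, 33.5 and 17.97 CPM against 221, 140 and 72.1 CPM), although *Calb2*, the calcium buffer calretinin, stood at 255 against 133 CPM, and *Pou4f1*, of the habenula, gave no UMI. Immediate early genes summed to 1187 ± 635 against 3942 ± 698 CPM, with 8 of 14 called lower. The 1 called higher was *Homer1*, a postsynaptic scaffold with an activity-induced form, at 93.1 against 28.9 CPM. Transmitter genes had a median of -0.76 over 9 genes, with *Th*, the rate-limiting enzyme of dopamine synthesis, and *Hdc*, which makes histamine, called lower (1.30 and 5.87 against 41.9 and 32.8 CPM).

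Receptors for steroid hormones were sparse. *Esr1*, the target of the deletion, gave 38 UMIs over all selected neurons, 14 of them in 9 cells of wild-type tamoxifen mouse 2, and none in *Esr1* cKO oil mice 2 and 3 or *Esr1* cKO tamoxifen mouse 3. *Esr2* gave 4 UMIs, the progesterone receptor *Pgr* 16 in 13 cells and the membrane receptor *Gper1* none. *Nkx2-1*, whose promoter drives Cre, gave 22 UMIs in 11 cells, 1 of these UMIs in a cell with *Crym*. The glucocorticoid receptor *Nr3c1* stood at 108 against 145 CPM. The list had a median of -0.39 over 7 genes and 0 calls, beside 0.978% of all genes called higher and 3.18% called lower. What size of difference in *Esr1* between groups could be detected within the selected neurons was not measured.

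Markers of other cell types were present in many selected neurons. At least 2 markers of 1 such type were detected in 150 selected neurons (58.1%) and in 48.7% of other neurons, which are shallower. Oligodendrocyte markers accounted for 124 of these cells (48.1% against 35.2%), with *Mbp*, a myelin protein, the most abundant at 420 CPM, but their sum was 837 CPM against 2582 CPM in other neurons and 26523 CPM outside the gate. Astrocyte markers summed to 347 CPM against 618 and 3715 CPM, led by the glutamate transporter *Slc1a2* at 230 CPM, and at least 2 were found in 30 cells. At least 2 tanycyte markers were found in 30 cells as well (265 against 437 and 679 CPM). Microglia markers summed to 25.6 CPM against 178 CPM, with *C1qa* and *P2ry12* at 0, and no selected neuron held 2 of them (0 of 258, which allows a share of up to 1.16%).

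For the remaining types, at least 2 markers occurred in 1 selected neuron for oligodendrocyte precursors (18.9 CPM in sum, *Bmp4* at 0), 4 for endothelium (185 CPM), 5 for mural cells (90.1 CPM, led by *Rgs5*), 2 for ependyma (63.4 CPM, led by *Fam183b*), 3 for fibroblasts (128 CPM against 140 CPM in other neurons, *Col1a2* and *Slc6a13* at 0) and 0 for pars tuberalis (16.7 CPM, *Cga* and *Pitx1* at 0). Compared with other neurons, 3 of 6 astrocyte, 3 of 8 oligodendrocyte, 3 of 3 precursor, 1 of 4 microglia, 0 of 6 endothelial, 1 of 3 mural, 6 of 6 ependymal, 1 of 2 fibroblast and 2 of 4 tanycyte markers were called lower, beside 3.18% of all genes, and none was called higher. The medians of these lists ran from -2.29 for mural cells to -0.38 for fibroblasts. Endothelial markers were uneven, at 1059 CPM (127 UMIs) in the selected neurons of *Esr1* cKO oil mouse 1, where other neurons stood at 283 CPM, and at 0 to 107 CPM in the other mice. Fibroblast markers were uneven as well, at 459 CPM (66 UMIs) in wild-type tamoxifen mouse 2 and 282 CPM (9 UMIs) in *Esr1* cKO tamoxifen mouse 4, where other neurons stood at 129 and 154 CPM. So were mural markers, at 242 CPM (29 UMIs) in *Esr1* cKO oil mouse 1 against 150 CPM in its other neurons. In wild-type tamoxifen mouse 3 they stood at 675 CPM (19 UMIs) against 696 CPM, and in the other mice at 0 to 82.0 CPM. The part of these markers in the results was not tested, and no doublet caller was run.

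Turning to the conditions, the share of selected neurons did not differ detectably between groups. It was 1.60 ± 0.753% (SD, n = 3) in wild-type oil mice, 3.14 ± 3.16% (n = 5) in wild-type tamoxifen mice, 2.63 ± 2.64% (n = 4) in *Esr1* cKO oil mice and 2.43 ± 2.02% (n = 4) in *Esr1* cKO tamoxifen mice. Tamoxifen against oil differed by 1.55 percentage points in wild-type mice (p = 0.607) and by -0.207 in *Esr1* cKO mice (p = 0.857), both by a two-sided exact permutation test over mice. *Esr1* cKO against wild-type mice differed by 1.04 under oil (p = 0.829) and by -0.717 under tamoxifen (p = 0.770), by the same exact permutation test. The interaction of genotype and treatment was -1.75 percentage points (p = 0.506, exact permutation within genotype). All 5 adjusted p-values were 0.857, and the smallest p these designs can give lies between 0.000255 and 0.0286. In each pair of groups the mice overlapped. Without wild-type tamoxifen mouse 2 the wild-type difference was 0.145, genotype under tamoxifen turned to 0.684 and the interaction was -0.353. Without *Esr1* cKO oil mouse 1 tamoxifen against oil in *Esr1* cKO mice turned to 1.11, genotype under oil turned to -0.283 and the interaction was -0.434. The values thus follow single mice. Without the libraries that stood apart the differences, in the order above, were 1.14, -1.15, 0.631, -1.66 and -2.29.

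Because selected neurons were chosen for these transcripts, the 4 markers were tested over all neurons of each mouse, in which fewer selected cells and less RNA per cell cannot be told apart. *Nrgn* stood at 54.4, 74.9 and 96.6 CPM in the wild-type oil mice, from 51.7 to 302 CPM (median 115) in wild-type tamoxifen mice, from 54.7 to 220 CPM in *Esr1* cKO oil mice and from 61.9 to 170 CPM in *Esr1* cKO tamoxifen mice. The highest value of each of the last 3 groups came from the mouse with the most selected neurons. The difference between tamoxifen and oil was 0.89 ± 0.56 (log2, SE) for wild-type and -0.06 ± 0.52 for *Esr1* cKO mice. *Crym* stood at 31.7 ± 12.4, 56.5 ± 68.3, 46.3 ± 52.3 and 62.6 ± 46.5 CPM in the 4 groups in the order above, with differences of 0.78 ± 0.98 and 0.38 ± 0.91. Over the settings run these differences ranged from -0.29 to 1.10 and from -0.05 to 1.65, so that neither kept its direction. Its single mice reached from 3.49 CPM in wild-type tamoxifen mouse 3 to 176 CPM in wild-type tamoxifen mouse 2.

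*Lypd1* differed little between group means, at 31.9 ± 16.6, 37.6 ± 17.9, 36.2 ± 16.6 and 37.5 ± 12.8 CPM, with differences between tamoxifen and oil of 0.25 ± 0.44 and 0.07 ± 0.41. *Arpp21* stood at 133 ± 57.8, 129 ± 46.2, 148 ± 58.7 and 241 ± 228 CPM, with differences of -0.01 ± 0.49 and 0.62 ± 0.48, the last group raised by *Esr1* cKO tamoxifen mouse 2 alone (583 CPM). Genotype differences under oil were 0.58 ± 0.58 for *Nrgn*, 0.54 ± 1.02 for *Crym*, 0.24 ± 0.46 for *Lypd1* and 0.23 ± 0.52 for *Arpp21*. Under tamoxifen they were -0.37 ± 0.49, 0.15 ± 0.85, 0.06 ± 0.39 and 0.86 ± 0.45, and the interactions were -0.95 ± 0.76, -0.40 ± 1.33, -0.17 ± 0.60 and 0.63 ± 0.68. None of the 20 tests passed (adjusted p of at least 0.976, edgeR over 13671 genes), and the groups overlapped for each marker.

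**Figure D5:**
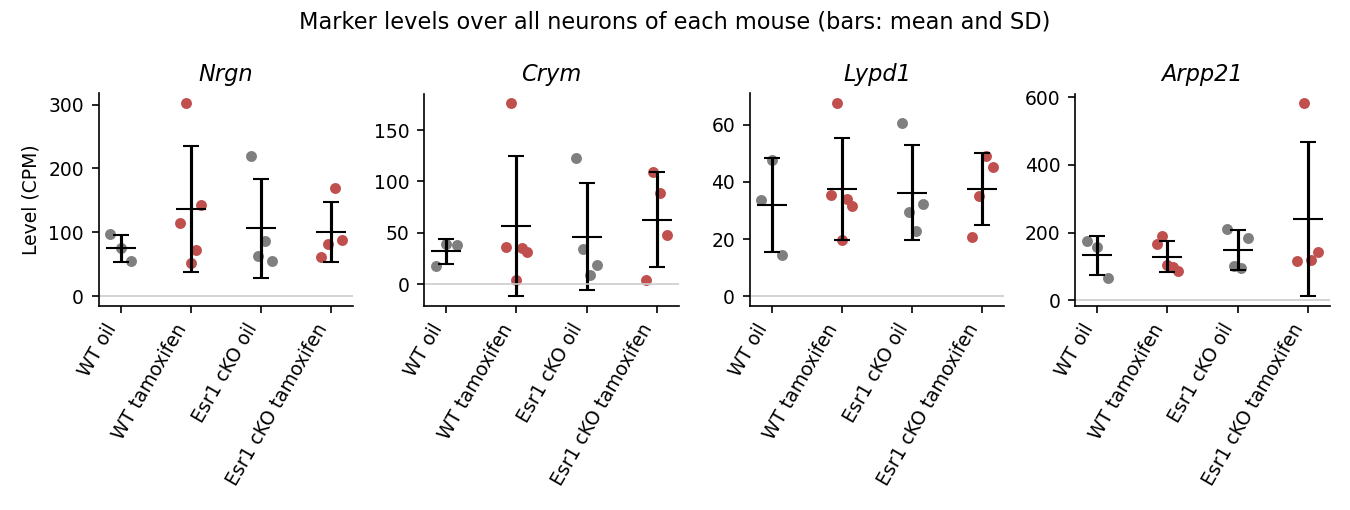
Level of *Nrgn*, *Crym*, *Lypd1* and *Arpp21* over all neurons of each mouse (vertical axes, CPM, 1 point per mouse) in the 4 groups, with horizontal bars for the mean and error bars for the SD. The groups overlap for each gene, and single mice (302 CPM for *Nrgn*, 176 CPM for *Crym*, 583 CPM for *Arpp21*) set the widest error bars.

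Conditions were then compared within the selected neurons. The fit covered 2622 genes in the 8 mice with at least 10 selected neurons, among them a single wild-type oil mouse, which is assumed to vary like the other groups. The 3 comparisons that use it rest on that mouse, and their counts of 0 say little. edgeR called 0 genes, 0% of those tested, for tamoxifen against oil in either genotype, for genotype under oil and under tamoxifen, and for the interaction. The counts at an unadjusted p under 0.05 were 94, 102, 102, 102 and 106, and DESeq2 also called 0 in each. Without the low-count filter edgeR called 14 genes for tamoxifen against oil in *Esr1* cKO mice, 17 for genotype under tamoxifen and 4 for the interaction, and with mice of at least 5 selected neurons 3 and 5 for the first pair. No listed gene was called. The cortical and hippocampal genes, 14 of 20 tested, had median differences between tamoxifen and oil of 0.32 for wild-type and 0.15 for *Esr1* cKO mice, and the calmodulin network, 19 of 27 tested, of -0.07 and 0.01. Leaving out the libraries that stood apart removed *Esr1* cKO tamoxifen mouse 3 from this fit, which left mouse 4 alone in that group beside the lone wild-type oil mouse, and the 0 calls of edgeR there say little. Without *Esr1* cKO tamoxifen mouse 4, which left mouse 3 of that group alone, edgeR called 91 genes for tamoxifen against oil in *Esr1* cKO mice, 105 for genotype under tamoxifen and 42 for the interaction.

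The genes with the smallest p are given as values. In *Esr1* cKO mice, *Mef2c*, an activity-dependent transcription factor of forebrain excitatory neurons, stood at 20.8 and 62.7 CPM under tamoxifen and at 250 and 251 CPM under oil (-3.10 ± 0.61, SE; adjusted p = 0.182, edgeR). *Ddah1*, which breaks down an inhibitor of nitric oxide synthesis, stood at 36.5 and 62.7 CPM against 267 and 309 CPM (-2.76 ± 0.52, adjusted p = 0.182, edgeR). For both genes the *Esr1* cKO tamoxifen mice lay below the other 6 mice in the fit. Over all kept cells, *Ddah1* stood at 77.1 CPM in *Esr1* cKO tamoxifen mouse 3 and at 93.9 CPM in wild-type oil mouse 3, the libraries that stood apart, and at 206 to 316 CPM in the other 14. *Mef2c* stood at 125 CPM in *Esr1* cKO tamoxifen mouse 3 and at 132 to 228 CPM elsewhere.

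*Ctla4*, an immune checkpoint receptor, gave no UMI in the selected neurons of *Esr1* cKO tamoxifen mice 3 and 4 and stood at 104 to 183 CPM in the other 6 mice. Over all kept cells it gave 0 and 5 UMIs in the libraries that stood apart, against 110 to 237 CPM in the other 14, *Esr1* cKO tamoxifen mouse 4 included. The unnamed transcript *9330111N05Rik*, lowest in p for genotype under tamoxifen (adjusted p = 0.184, edgeR), had the same pattern, with no UMI in the selected neurons of both *Esr1* cKO tamoxifen mice and 0 and 3 UMIs over all kept cells of the libraries that stood apart. Under oil and in the wild-type comparison the lone wild-type oil mouse decided the order. *Psma3*, a proteasome subunit, gave 0 UMIs in it and 116 to 266 CPM in the other 7 mice. The ubiquitin-conjugating enzyme *Ube2k* and the complex I subunit *Ndufs4* each stood at 28.2 CPM, 1 UMI, in that mouse and at 219 to 365 CPM and 157 to 320 CPM elsewhere. *Gpr83*, a G protein-coupled receptor, stood at 226 CPM in it and at 0 in both *Esr1* cKO oil mice.

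Over all neurons the 16 mice gave 0 calls in each comparison, 0% of 13671 genes by edgeR, with 434, 431, 756, 498 and 623 genes at an unadjusted p under 0.05. The study ran the groups side by side over several days, and with successive fours of library numbers as a term, in place of the days that the labels do not give, edgeR called 3 genes for tamoxifen in wild-type mice and 14 for genotype under oil, each of them lower. The 3, named after their values were seen, were *Tmem212*, *Ccdc146* and *Gm216* (-1.72 ± 0.23, -1.85 ± 0.27 and -1.71 ± 0.26, SE; adjusted p of 0.0303, 0.0485 and 0.0485, edgeR). Without that term they stood at -1.11, -1.18 and -1.24. *Tmem212* is on the ependymal list, as is *Ccdc153* among the 14. Over all neurons the ependymal markers had medians of -1.03 and -1.12 in these comparisons without the term, and in the other neurons of wild-type oil mouse 3, a library that stood apart, they summed to 1261 CPM, the highest of the 16 mice. Their part in the calls was not tested. DESeq2 without the term called 2, both for genotype under tamoxifen. These were *Nov*, a secreted matricellular protein of the CCN family, and *Acp1*, an acid phosphatase. *Nov* stood at 10.2 ± 8.90 and 11.7 ± 7.37 CPM in wild-type oil and tamoxifen mice and at 46.2 ± 5.66 and 75.7 ± 36.7 CPM in *Esr1* cKO oil and tamoxifen mice, a genotype difference under tamoxifen of 2.76 ± 0.43 (SE; adjusted p = 0.0863, edgeR). *Acp1* differed by 1.18 (adjusted p = 0.167, edgeR). The genes of smallest p for tamoxifen against oil were *Sst*, *Vegfa* and *Eea1* in wild-type mice (1.86, -0.72 and -0.74; adjusted p = 0.99999, edgeR) and *Usp40*, *Crhbp* and *Mthfs* in *Esr1* cKO mice (-0.67, -1.71 and 0.75; adjusted p = 0.99998, edgeR).

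Last, the share of selected neurons was set against forebrain gene levels in the other neurons of the same mouse, within the 13 mice below 2.3% so that the 3 rich mice could not set the relation alone. For cortical and hippocampal genes r was 0.19 (permutation p = 0.542) and rho 0.35 (permutation p = 0.249). For striatal genes r was 0.17 (permutation p = 0.612) and rho 0.44 (permutation p = 0.135), and for hypothalamic transcription factors 0.19 (permutation p = 0.543) and 0.18 (permutation p = 0.564). The adjusted p was 0.612 for each r over the 3 relations and between 0.373 and 0.564 for rho. Without the 2 mice farthest from the median, r was 0.35, 0.19 and -0.04. In the 3 rich mice the other neurons carried the cortical and hippocampal genes at 1431, 1382 and 1315 CPM, within the 1146 to 1654 CPM of the other 13.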

How the data were processed

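The authors deposited, for each of 16 mice (1 Drop-seq library each), whole-number UMI counts per gene and barcode without normalization. The submitters' processing notes name STAR 2.6, Seurat 3.6.1 and mm10. Tissue was dissociated with papain and cells were cleared on a density gradient. The study reports dissections over several days, and the labels give no day per library, so successive fours of library numbers served as a term. The members and gene lists were chosen with earlier results of these data known. CPM were UMIs of a set of cells over that set's total. UMI counts summed per mouse were tested with edgeR 4.0.16 (TMM, filterByExpr, quasi-likelihood, limma 3.58.1) in R 4.3.3, with Benjamini-Hochberg adjustment at 0.05 over all genes, and with DESeq2 1.42.0 as an alternative. Shares were tested by exact permutation over mice (scipy 1.17.1). Replicates are separate mice, and p-values measure the spread between them. Correlations had been designed over 16 mice and were run in 13, because the shares fell into separate clusters, with 100000 resamples. Genes outside the rule were named as the 20 highest (at least 50 UMIs in selected neurons) and 10 lowest (at least 100 CPM in other neurons) by log2 ratio with 10 CPM added and 1 direction in every mouse with at least 10 selected neurons, the 4 most abundant of each list with those at 0, the 3 of smallest p per comparison of conditions, and *Esr1*, *Esr2*, *Pgr*, *Gper1* and *Nkx2-1*. Genes compared between selected neurons with and without *Crym* were chosen after their values were seen. A few genes that these rules name are not reported here. No doublet caller was run. The fits were tested on simulated data, for tamoxifen against oil. In selected neurons of *Esr1* cKO mice, 10.4% of changes of log2 1 and 55.2% of log2 2 were recovered, with 10 false calls among 109. Over all neurons of wild-type mice 25.4% and 85.1% were recovered, with 7 false calls among 144. Alternatives covered the cell filters, the *Nrgn* and companion thresholds, the depth of other neurons, the pseudocount, the low-count filter, the library size scaling, the libraries that stood apart and each mouse left out.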

Additional observations from a re-analysis of the deposited data

Results flagged for a closer look

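In groups of 4 or 5 mice, 27 sets of values were examined for a mouse far from the rest of its group, and 5 held one. Chance alone marks about 1 group in 20. The first pair concern the share of selected neurons. Wild-type tamoxifen mouse 2 stood at 8.75% of neurons where the nearest mouse of its group stood at 2.11%, and *Esr1* cKO oil mouse 1 stood at 6.59% where the nearest stood at 1.40%. *Crym* over all neurons stood at 176 CPM in wild-type tamoxifen mouse 2, and the nearest mouse stood at 36.2 CPM. In *Esr1* cKO tamoxifen mouse 2, *Arpp21* over all neurons stood at 583 CPM (nearest 144 CPM) and the striatal projection neuron genes, summed over the neurons outside the selection, at 1924 CPM (nearest 916 CPM). That mouse held 4 selected neurons among 248, the fewest neurons of any library.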

How the results depend on the processing

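No paired analysis was possible because the labels carry no replicate numbers and tie no mouse to a day. A fit with fours of library numbers as a term in place of days was run, and its calls are given below. The last of these fours holds no wild-type oil mouse, and each of the others holds 1 mouse of each group. The share tests carried no such term. Of the share differences, tamoxifen against oil in *Esr1* cKO mice became 0.207 percentage points with at least 2 companions required. With 1 mouse left out, it ran from -1.15 to 1.11, genotype under oil from -0.283 to 1.51 and genotype under tamoxifen from -1.66 to 0.684. In selected neurons, edgeR called 14 genes (tamoxifen against oil in *Esr1* cKO mice), 17 (genotype under tamoxifen) and 4 (interaction) without a low-count filter, and 3 and 5 of the first pair with mice of at least 5 selected neurons. With 1 mouse left out these counts ran from 0 to 91, 0 to 105 and 0 to 42, the highest without *Esr1* cKO tamoxifen mouse 4. Over all neurons, genotype under tamoxifen gave 2 calls with DESeq2, 1 without a filter, 1 without the libraries that stood apart and 0 to 1 with a mouse left out. Successive fours of library numbers as a term gave 3 calls for tamoxifen in wild-type mice and 14 for genotype under oil. The causes were not tested. The 4 markers kept an adjusted p of at least 0.809 in edgeR under the 22 settings run, and 17 of their 20 differences over all neurons changed sign under at least 1 setting. Median list ratios moved as follows. Against other neurons of at least the lower-quartile depth of selected ones, receptor subunits stood at 0.51, oxidative phosphorylation at 0.0204 and ribosomal proteins at -0.32. With at least 3 *Nrgn* UMIs, which left 3 of the 8 mice with 10 such cells, so that the threshold and the set of mice changed together, transmitter genes stood at -1.45, neuropeptides at -3.15, hypothalamic transcription factors at -1.72, ribosomal proteins at -0.28, oligodendrocyte markers at -2.54 and tanycyte markers at -1.67. With 1 CPM added in place of 10, neuropeptides stood at -4.06, hypothalamic transcription factors at -2.001, precursor markers at -3.00, microglia at -2.55, ependyma at -3.03 and tanycytes at -2.16. Moves toward 0 within the spread between mice also occurred. With at least 3 *Nrgn* UMIs microglia markers stood at -0.73 and steroid hormone receptors and targets at -0.06. Nicotinic and muscarinic receptors with Ly6 proteins stood at -0.10 under that threshold. The r for striatal and hypothalamic genes became -0.00707 and -0.0788 with at least 3 *Nrgn* UMIs. Of the values that answer a comparison, 382 otherwise kept their direction and side of the threshold or stayed within the spread between mice. Of single-gene values 2291 did, 97 changed sign without being called, 30 passed the threshold in the same direction and 6 moved. Tests within selected neurons could not be fitted with at least 20 selected neurons a mouse, 3 *Nrgn* UMIs or possible doublets left out, which left 3 mice. With fours of library numbers as a term they gave 0 calls on 1 residual degree of freedom.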
